A study of Mus musculus with 4 samples.

Results

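The 9 genes described here encode transcription factors that T cells switch on after their antigen receptor signals. They are the 3 NR4A nuclear receptors (Nr4a1, Nr4a2 and Nr4a3), the EGR zinc finger factors Egr1, Egr2 and Egr3, the HMG box factors Tox and Tox2, and Nfatc1, which encodes a calcium-regulated factor of the NFAT family. They were chosen by name as a group of antigen-signal factors, with earlier results of these data known, and every probe whose design transcript maps to them was taken. This gave 15 of the 56605 non-control probes on the array, and 9 of the 22909 genes that could be named. Of the genes, 4 had 1 probe, 4 had 2 probes, and Egr3 had 3 probes.

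Gene expression was measured in CD8 T cell subsets of spleen and lymph node, sorted by flow cytometry on CD44, an adhesion receptor that rises with T cell activation, and CD62L, the lymph node homing receptor. The subset called P4 was CD44low CD62Llow, P3 was CD44high CD62Llow, P2 was CD44high CD62Lhigh and P1 was CD44low CD62Lhigh, the last being the phenotype of naive cells. All 4 subsets came from untreated C57BL/6 mice aged 1 to 3 months that carry the PD-1-/- genotype, so no subset with an intact PD-1 receptor served as a control. Each subset was hybridised to 1 single-colour Agilent array, and the sources used here give no number of pooled mice. With 1 array per subset the differences have no replicate check, so no p-value is given and genes are counted by the size of their difference.

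Signals from the antigen receptor reach these genes along a pair of main routes, calcium with calcineurin and NFAT, and the MAP kinase cascade. NR4A and EGR genes belong to the immediate early class, whose transcripts appear without new protein synthesis and fade quickly. NR4A factors and TOX are known for their part in the dysfunctional state of CD8 T cells under lasting antigen, EGR2 and EGR3 for restraining T cells and for anergy, and Nr4a1 is widely used as a reporter of recent receptor signalling.

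A level below is log2 of the processed spot signal minus the 75th percentile of its array, so that 0 is the 75th percentile and a step of 1 is 2-fold. A level is compared between arrays for 1 probe and never between probes, whose brightness depends on their sequence. The 75th percentile signal was 315.1 in P4, 550.1 in P3, 332.3 in P2 and 333.1 in P1, and between 27827 and 30811 probes were well above background per array. Repeated spots gave a 95% half-width of 0.18 for a difference between arrays at levels of 0 or more, 0.37 between -3 and 0, and 0.72 below -3. These widths cover spot noise only, not variation between mice, sorts or labelling reactions. All 7 T cell markers with a probe, such as Cd3e and Cd8a, were well above background on every array. Pdcd1, the gene of PD-1, had levels of 2.23 in P4, 2.30 in P3, -2.53 in P2 and -2.77 in P1. The sources used here do not place its probe inside or outside the disrupted stretch, so these values do not check the genotype.

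Transcripts of other cell types differed between the arrays and stand beside every P3 value below. Of 8 type 2 dendritic cell and class II markers, 8 were well above background in P3, against 5 in P4, 5 in P2 and 3 in P1, and their summed signal was 312 times the 75th percentile in P3 and between 2.82 and 10.8 times it elsewhere. Of 8 type 1 dendritic cell markers, 8 were well above background in P3, against 4 in P4, 5 in P2 and 4 in P1, with Xcr1, Clec9a and Batf3 not above background outside P3. Their summed signal was 27.0 in P4, 66.1 in P3, 7.75 in P2 and 19.5 in P1, and outside P3 it rested mostly on Itgae and Irf8. Of 11 macrophage and monocyte markers, 10 were well above background in P3 and between 3 and 5 elsewhere, with a summed signal of 34.0 in P3 against 3.62 to 4.60 elsewhere. B cell markers summed to 6.84, 11.6, 7.26 and 8.05 in P4, P3, P2 and P1. Natural killer cell markers summed to 16.3, 40.9, 26.6 and 3.77 in the same order of subsets, with Ncr1 above background in none. The part of such cells in the values of P3 was not tested. In sorted populations measured in bulk, fewer cells of a type and less RNA per cell cannot be told apart.

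The upstream windows of 4 members are shown because they differ in the sites through which calcium and MAP kinase signals are known to act. RefSeq windows were matched for 5 of the 9 members (Nr4a1, Nr4a2, Nr4a3, Egr2 and Tox2), and the 250 bases before a start site are printed 5′ to 3′ on the gene's strand, from GRCm38.p6. Capitals mark TGACG, the core of the cyclic AMP response element, on either strand (CGTCA on the other strand), and in Egr2 also the CArG box, the site of serum response factor. The windows lie at chr15:101266596-101266845 (plus strand) for Nr4a1, chr2:57124004-57124253 (minus strand) for Nr4a2, chr4:48045055-48045304 (plus strand) for Nr4a3 and chr10:67537619-67537868 (plus strand) for Egr2.
Nr4a1: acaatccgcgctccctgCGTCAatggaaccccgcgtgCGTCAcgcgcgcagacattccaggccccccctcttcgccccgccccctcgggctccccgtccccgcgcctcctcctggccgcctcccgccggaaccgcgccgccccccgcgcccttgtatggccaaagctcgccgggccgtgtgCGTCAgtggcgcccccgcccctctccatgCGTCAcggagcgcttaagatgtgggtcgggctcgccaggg
Nr4a2: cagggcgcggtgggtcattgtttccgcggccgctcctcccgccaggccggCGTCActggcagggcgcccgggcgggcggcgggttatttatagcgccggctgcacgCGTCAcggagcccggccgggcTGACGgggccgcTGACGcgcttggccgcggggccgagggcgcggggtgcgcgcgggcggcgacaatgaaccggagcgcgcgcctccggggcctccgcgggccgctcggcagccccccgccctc
Nr4a3: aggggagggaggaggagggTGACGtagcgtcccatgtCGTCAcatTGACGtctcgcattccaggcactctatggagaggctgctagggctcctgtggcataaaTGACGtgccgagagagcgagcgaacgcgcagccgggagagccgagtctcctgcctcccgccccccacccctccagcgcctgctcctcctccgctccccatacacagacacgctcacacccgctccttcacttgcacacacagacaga
Egr2: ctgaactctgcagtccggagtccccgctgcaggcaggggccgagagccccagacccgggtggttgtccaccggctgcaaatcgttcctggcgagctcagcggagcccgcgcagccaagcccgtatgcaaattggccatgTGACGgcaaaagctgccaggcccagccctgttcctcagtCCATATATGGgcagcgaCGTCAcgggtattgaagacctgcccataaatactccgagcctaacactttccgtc

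Each NR4A window held 4 matches to TGACG. Among 32851 RefSeq windows of this length, 17.8% held at least 1 match and 0.137%, or 45 windows, held 4 or more. Of the 5 Egr2 start sites in the table, 3 that lie close together share 2 TGACG matches and a CArG box, and the window of the first of them is printed. It had 2 matches and 1 CArG box, which 1.47% of windows held, between them. The window of another Egr2 start site held a CArG box and 3 NFAT cores but no TGACG match. The TGACG matches of Nr4a1 fell into a far and a near group, whereas all 4 of Nr4a3 lay in the far part of its window. The full palindrome TGACGTCA (1.55% of windows) and the AP-1 site TGACTCA (4.46%) had no match in the 4 printed windows. The NFAT core GGAAA matched once each in the Nr4a2 and the printed Egr2 window but is present in 55.6% of windows, and the EGR site GCGGGGGCG (2.57%) matched once in Nr4a1. Both strands were searched, no matches in the printed windows overlapped, and a match describes the letters of the window, not a bound site.

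**Figure D1:**
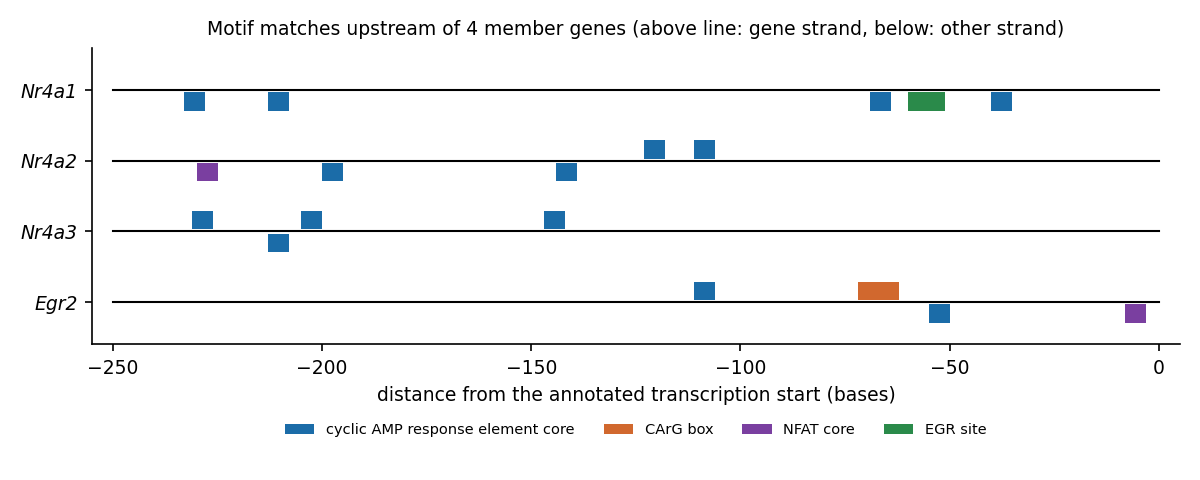
Motif matches in the 250 bases before the annotated start of Nr4a1, Nr4a2, Nr4a3 and Egr2 (x axis, bases from the start), drawn above the line for the gene's strand and below it for the other strand. Each NR4A window carries 4 blue matches to the cyclic AMP response element core, at different spacings, and Egr2 has 2 of them with the CArG box between.

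Transcripts of 8 of the 9 genes were well above background in every subset, and Tox2 in P4 and P3 only. Nr4a2, Egr3 and Tox spanned at least 2-fold over the 4 subsets, as did 18.3% of the 11836 genes well above background throughout. The other 5 spanned less. Nr4a1, Nr4a3, Egr1, Egr2 and Egr3 had their highest level in P4, which held for 16.7% of those genes, while Nr4a2, Tox and Nfatc1 had theirs in P3, as did 29.1%. No member spot was flagged as an outlier or lay in a locally bright area of its array.

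**Figure D2:**
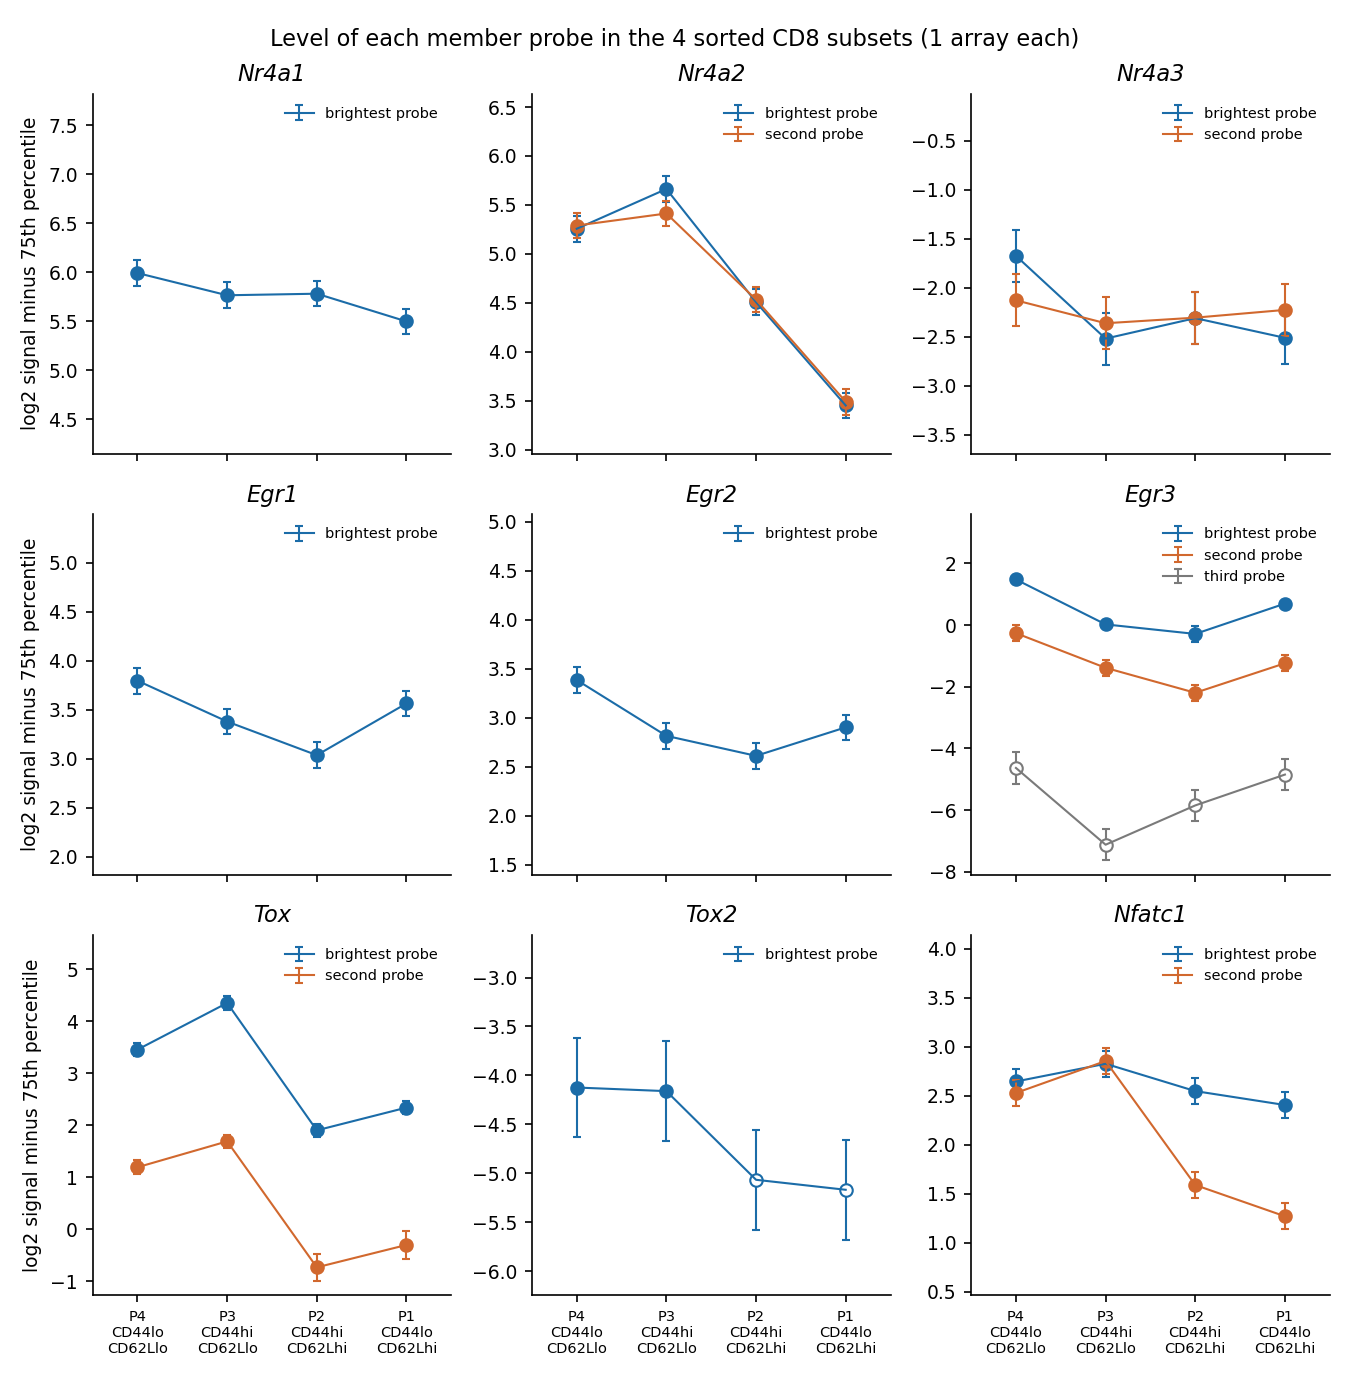
Level of every probe of the 9 genes (y axis, log2 signal minus the 75th percentile of the array, with a different range in each panel) in P4, P3, P2 and P1. Points are single arrays, error bars are 95% intervals of spot noise for the level range and open points are not well above background. Nr4a2 and Tox are high in both CD62Llow subsets, and the probes of Nfatc1 part in P2 and P1. The EGR probes above background are highest in P4 and lowest in P2.

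Among the NR4A receptors, Nr4a2 was lowest in P1 and highest in the CD62Llow subsets, and Nr4a1 spanned 0.49 on the log2 scale. Nr4a1 (Nur77), the usual reporter of receptor signalling, had levels of 5.99 in P4, 5.77 in P3, 5.78 in P2 and 5.50 in P1. P4 was 0.49 above P1, under 2-fold but beyond spot noise, and P3 and P2 differed by 0.02, within it. The probe was bright on every array, naive-phenotype cells included, and no spot was saturated.

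Nr4a2 (Nurr1) had levels of 5.26 in P4, 5.66 in P3, 4.51 in P2 and 3.45 in P1. Every step of the order P3, P4, P2, P1 exceeded the 0.18 of spot noise, and the same order held for 7.05% of genes. Over P1, Nr4a2 was 3.49-fold higher in P4, 4.63-fold in P3 and 2.08-fold in P2. A second probe on the same transcript read 5.29 in P4, 5.41 in P3, 4.53 in P2 and 3.49 in P1, so that P3 and P4 came within spot noise of each other and P3 exceeded P2 by 0.88, short of 2-fold. P3 carried the transcripts of other cell types given above, and their part in the Nr4a2 level there was not tested. Nr4a2 was 1.68-fold higher in P4 than in P2. In P4 and P2, summed type 1 dendritic cell markers were 27.0 and 7.75 and natural killer cell markers 16.3 and 26.6. CD4 and regulatory T cell markers were 5.26 and 2.12, and macrophage markers 4.19 and 4.60. The type 1 dendritic cell sums rested mostly on Itgae (4.06 in P4, 0.62 in P2) and Irf8 (3.18 and 2.21). Xcr1, Clec9a and Batf3 were not above background in either subset. Cadm1 was above it in P2 only, and Wdfy4 was lower in P4 (-2.09 against -1.44). The natural killer cell sums rested mostly on Eomes (3.82 and 4.16). The part of such cells in the Nr4a2 difference between P4 and P2 was not tested either.

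Nr4a3 (Nor1) gave low signals of 98.6, 95.8, 66.9 and 58.4 units in P4, P3, P2 and P1. Its levels were -1.68 in P4, -2.52 in P3, -2.31 in P2 and -2.51 in P1. P4 stood 0.64 above the next subset and the other 3 lay within spot noise of one another. The second probe, designed on another transcript of the gene, read -2.13, -2.36, -2.31 and -2.23 in the same order, all within spot noise, so the higher value of P4 was seen with 1 of 2 probes.

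The 3 EGR genes followed 1 order, with P4 highest, then P1, P3 and P2, and P4 and P1 are the CD44low subsets. Egr1 had levels of 3.80 in P4, 3.38 in P3, 3.04 in P2 and 3.56 in P1. Egr2 had levels of 3.39 in P4, 2.82 in P3, 2.61 in P2 and 2.90 in P1. Egr3 had levels of 1.48 in P4, 0.02 in P3, -0.29 in P2 and 0.70 in P1. That order was seen in 2.76% of genes, and Egr2 in P1 and P3 differed by 0.09, within spot noise, and Egr1 by 0.19, at its edge. Egr1 and Egr2 spanned 0.76 and 0.77 on the log2 scale, whereas Egr3 spanned 1.77, its P4 level exceeding P3 by 2.74-fold, P2 by 3.40-fold and P1 by 1.72-fold. The second Egr3 probe gave -0.26 in P4, -1.39 in P3, -2.20 in P2 and -1.24 in P1, with P3 and P1 no longer apart beyond spot noise. The third was above background on no array.

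Nab2, the corepressor that binds EGR proteins and is itself an EGR target, had levels of 4.33 in P4, 3.41 in P3, 2.71 in P2 and 3.88 in P1, the same order as the 3 EGR genes. It was 3.08-fold higher in P4 than in P2. Egr4 behaved otherwise: its levels were -2.50 in P4, -1.89 in P3 and -2.80 in P2, and it was not well above background in P1. Set against P1, it was higher by at least 3.11-fold in P4, at least 4.76-fold in P3 and at least 2.53-fold in P2, bounds that rest on the dimmest level measurable in P1. With normexp background correction 0 of the family relatives were counted as higher in these 3 pairs, so that the Egr4 calls were lost. Within both CD62L classes Egr1, Egr2, Egr3 and Nab2 were lower in CD44high cells, as were 39.0% of genes, and by 0.25 or more in each, as were 8.85%. The smallest of these differences, -0.29 for Egr2 in P2 against P1, lay close to the 0.25 cut. The 8.85% therefore depends on where that cut was placed.

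Tox, the HMG box factor needed for persistence of exhausted CD8 T cells, was higher in both CD62Llow subsets. Its levels were 3.45 in P4, 4.35 in P3, 1.90 in P2 and 2.34 in P1, with every step beyond spot noise and an order shared by 6.18% of genes. It was 5.45-fold higher in P3 than in P2, 4.03-fold higher in P3 than in P1, 2.93-fold higher in P4 than in P2 and 2.16-fold higher in P4 than in P1. The second Tox probe read 1.19 in P4, 1.69 in P3, -0.73 in P2 and -0.30 in P1, again with both CD62Llow subsets above both CD62Lhigh subsets. Markers of CD4 and regulatory T cells were also higher in both CD62Llow subsets. Their summed signals were 5.26 in P4, 8.37 in P3, 2.12 in P2 and 1.83 in P1. Between P2 and P1 the sum and Tox went opposite ways. Of the 5 such markers, 4 were above background in P4, P3 and P2 and 3 in P1, and Cd40lg on no array. Cd4 itself was at 0.13 in P4, 0.76 in P3, 0.15 in P2 and 0.13 in P1. Outside P3 the sum thus moved mostly through Ctla4 (1.28 in P4, -0.48 in P2) and Il2ra (0.55 and -2.48). Foxp3 was dim (-1.97 and -3.27) and added little. The part of CD4 and regulatory T cells in the Tox values was not tested, nor was that of the antigen-presenting cell transcripts in P3.

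Tox2, a close relative of Tox, lay near the limit of detection, with levels of -4.12 in P4 and -4.16 in P3. In P2 and P1 it read -5.07 and -5.17, not well above background, and set against the dimmest measurable level of those arrays its difference was between -0.11 and 0.02. A higher Tox2 in the CD62Llow subsets was thus not measurable at this signal. Tox3 was above background on no array, and Tox4, a widely expressed relative, stayed between 0.12 and 0.45.

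The probes of Nfatc1 shared the order P3, P4, P2, P1 but disagreed in the size of the differences. The brighter one, used for the gene and designed on transcript NM_198429, had levels of 2.65 in P4, 2.83 in P3, 2.55 in P2 and 2.41 in P1. No step between neighbours in that order exceeded spot noise. Wider steps did, with P3 above P1 by 0.42 and above P2 by 0.28, and P4 above P1 by 0.24. The other, designed on NM_016791, had levels of 2.53 in P4, 2.86 in P3, 1.59 in P2 and 1.27 in P1. On it P4 exceeded P1 by 1.26 and P2 by 0.94, and P3 exceeded P1 by 1.59 and P2 by 1.27. Nfatc1 is known to make several isoforms, among them a short one induced by activation. The sources used here do not say which of them each probe detects.

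Of its relatives, Nfatc2, the main NFAT of resting T cells, had levels of 4.03 in P4, 4.80 in P3, 5.04 in P2 and 4.37 in P1, and was 2.02-fold lower in P4 than in P2. Nfatc3 stayed between 4.11 and 4.41, Nfatc4 between -0.27 and 0.40, and Nfat5, the tonicity-responsive member, between 1.12 and 1.85. Of 14 calcineurin and NFAT regulators above background throughout, 3 spanned 2-fold or more, near the 18.3% of all genes, and the median range of the list was 0.48. Rcan1, a calcineurin inhibitor that NFAT itself induces, had levels of 1.42 in P4, 1.20 in P3, 1.28 in P2 and 1.42 in P1.

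Counted pair by pair, few members passed 2-fold and none was lower by that much in the first subset of a pair. In P4 against P1, 2 of 9 were higher (Nr4a2 and Tox), where 5.43% of all measured genes were higher and 1.77% lower. Their median difference was 0.49, against -0.07 over all measured genes. In P4 against P2, 2 of 9 were higher (Egr3 and Tox; 4.78% of genes higher, 3.45% lower), with a median of 0.75 against -0.002. In P4 against P3, 1 of 9 was higher (Egr3; 3.98% of genes higher, 9.06% lower), with a median of 0.23 against 0.02.

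In P3 the members past 2-fold were Nr4a2 and Tox against either CD62Lhigh subset. Against P1 these were 2 of 9, where 12.5% of genes were higher and 6.98% lower, and against P2 2 of 9, where 10.6% were higher and 5.61% lower. The medians were -0.01 and 0.28, against -0.10 and -0.04 over all measured genes. In P2 against P1, 1 of the 8 measured members was higher (Nr4a2; 4.75% of genes higher, 2.52% lower), with a median of -0.07 against -0.06. These pairs share arrays, so the counts are not independent of one another.

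**Figure D3:**
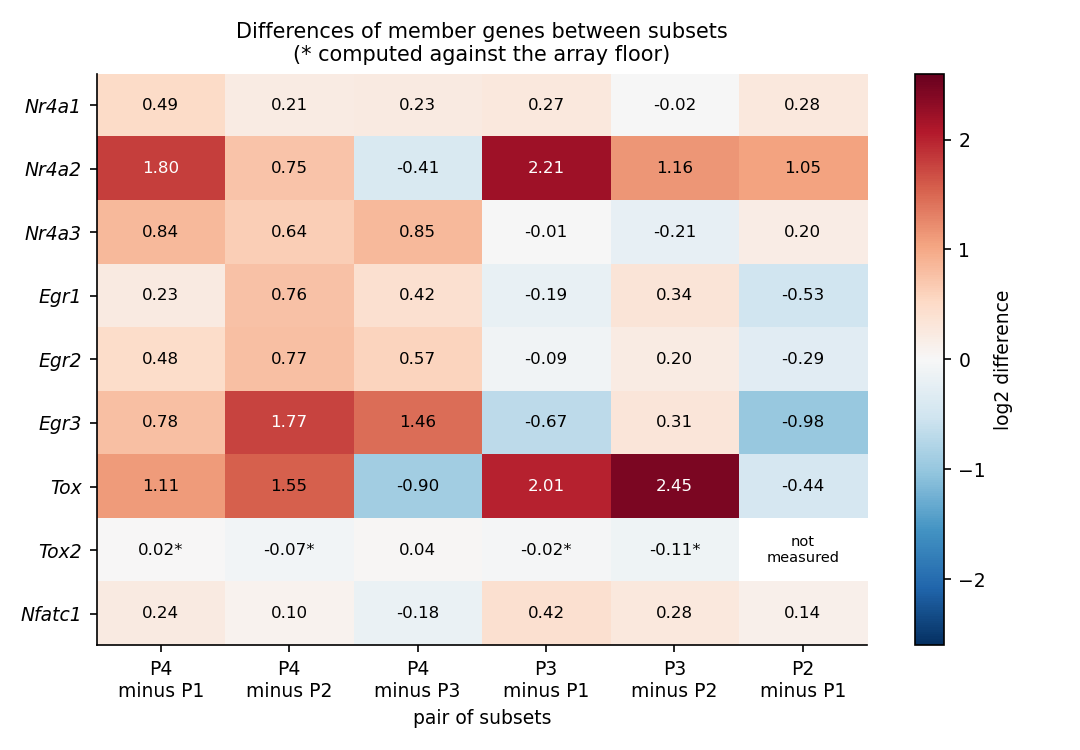
Log2 difference of each gene (rows, brightest probe) in the 6 pairs of subsets (columns, first minus second). Red marks a higher level in the first subset of the pair, a star marks a value set against the dimmest measurable level of an array, and the strongest red lies in the Nr4a2, Egr3 and Tox rows.

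The 4 subsets form a square of CD44 and CD62L, in which each marker can be followed at both states of the other. Nr4a2 was higher in CD62Llow cells by 1.80 among CD44low cells and 1.16 among CD44high cells, and Tox by 1.11 and 2.45. CD62Llow cells had the higher level in both CD44 classes by 2-fold or more in 2.37% of genes, and by any amount in 25.1%. The EGR genes were also higher in CD62Llow cells in both classes, Egr3 by 0.78 and 0.31 (-0.05 among CD44high cells with the mean over its probes), Egr1 by 0.23 and 0.34 and Egr2 by 0.48 and 0.20. Nr4a1 and Nr4a3 were higher in P4 than in P1, by 0.49 and 0.84, and not in P3 than in P2, where their differences of -0.02 and -0.21 lay within spot noise. Quantile normalization turned that Nr4a1 difference to 0.22.

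Along CD44 the families went different ways. Egr3 was lower in CD44high cells by a log2 difference of -1.46 among CD62Llow cells and -0.98 among CD62Lhigh cells, and Nab2 by -0.92 and -1.17. Nr4a2 was higher in CD44high cells, by 0.41 and 1.05. Tox was higher by 0.90 among CD62Llow cells and differed by -0.44 among CD62Lhigh cells, and Nr4a1 differed by -0.23 and 0.28. These contrasts are single differences between arrays, and whether they differ from one another was not tested.

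**Figure D4:**
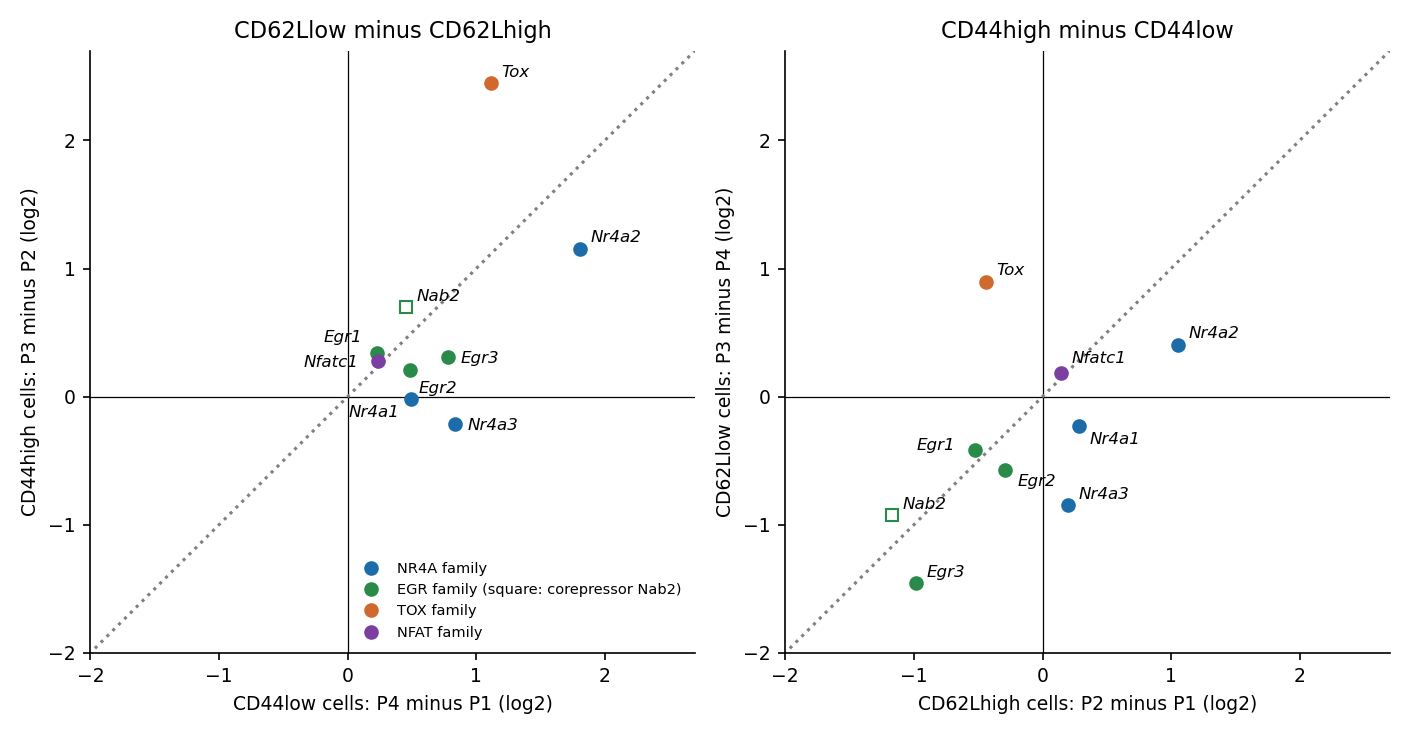
Differences of the members and of Nab2 (open square) along CD62L (left, CD62Llow minus CD62Lhigh) and CD44 (right, CD44high minus CD44low), each plotted in 1 class of the other marker against the other class, in log2 units. On the dotted line both classes differ equally; Nr4a2 and Tox lie far up and right on the left, the EGR genes and Nab2 lie low on both axes on the right, and Tox2 is left out because its values are bounds.

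Genes whose levels ran most like a member's were sought among 11040 genes above background on every array, for the 3 members that spanned 2-fold. Likeness is the root mean square difference of the 4 levels after each gene's mean is removed, a description over 4 arrays. Nearest to Egr3 were Sox4, an HMG box factor of lymphocyte development, at 0.07, Cyth3, an ARF exchange factor, at 0.12, and Gstm3, a glutathione transferase, at 0.16. Nab2 was in place 6 at 0.20. Other EGR genes and EGR-linked genes came later, with Ndrg1 in place 13, Izumo1r in 73, Egr2 in 80, Egr1 in 104 and Tnfrsf9 in 10738. Nearest to Tox were Cd24a, a surface glycoprotein of immature and activated lymphocytes, at 0.07, Foxp3, the regulatory T cell factor, at 0.09, and Marcksl1, an actin-linked protein, at 0.13. Foxp3 itself was dim, with levels of -1.97 in P4, -1.03 in P3, -3.27 in P2 and -2.97 in P1. Nearest to Nr4a2 were Slc37a2, a sugar phosphate exchanger, at 0.12, Mapk8ip1, a JNK scaffold, at 0.12, and Hspa1a, the inducible heat shock protein HSP70, at 0.15. Hspa1a had levels of 5.89 in P4, 6.13 in P3, 4.73 in P2 and 3.98 in P1.

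Other genes of the receptor response were counted by list. Of 15 EGR-linked anergy genes, 6 passed 2-fold upward and 0 downward in P4 against P1, where 5.43% and 1.77% of all measured genes did. In P4 against P2 these were 8 and 0 (4.78% and 3.45% of genes), and in P4 against P3 they were 0 and 1 (3.98% and 9.06%). Their median difference was 0.85, 1.08 and -0.34 in the same pairs. In P3 against P1, 8 were higher and 0 lower (12.5% and 6.98% of genes), with a median of 1.29. In P3 against P2 these were 6 and 0 (10.6% and 5.61%), with a median of 0.79. Lag3, an inhibitory receptor of MHC class II, had levels of 2.87 in P4, 3.21 in P3 and -1.82 in P2 and was not well above background in P1, so that P4 exceeded P1 by at least 128-fold. Tnfrsf9 (4-1BB), a costimulatory receptor, had levels of 4.16 in P4, 3.27 in P3, 0.62 in P2 and 0.35 in P1. Rnf128 (GRAIL), an anergy ubiquitin ligase, had levels of 0.48, 1.13, -1.92 and -3.78 in the same order of subsets. Lag3 and Rnf128 were thus highest in P3, and Tnfrsf9, like Egr1, Egr2 and Egr3, in P4. Dgka, whose kinase blunts diacylglycerol signals, had a log2 difference of -0.32 between P4 and P1.

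Of 20 surface genes linked to receptor signal strength, 9 were higher and 2 lower in P4 than in P1 (5.43% and 1.77% of genes). In P3 against P1, 10 of 20 were higher and 0 lower (12.5% and 6.98%). The count set no direction in which each gene should follow the signal. The 2 lower in P4 than in P1 were Ly6c1 and Ly6c2, at -1.16 and -1.20. With quantile normalization the 2 lower became 0. Havcr2 (TIM-3) exceeded its P1 level in P4 by at least 59.8-fold, and Entpd1 (CD39) by 31.3-fold. Cd5 and Cd69, which rise with receptor signalling, differed by -0.02 and -0.25. In P4 against P3, 5 of 20 were at least 2-fold lower and 0 higher (9.06% and 3.98% of genes). Among them were Tnfrsf4 (OX40) and Cd38, at -1.36 and -1.26, and again Ly6c1 and Ly6c2, at -1.21 and -1.24.

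Other transcription factors and the feedback inhibitors were mixed. Of 25 activation-induced factors measured in P4 against P1, 5 were higher and 1 lower (5.43% and 1.77% of all measured genes), with a median of 0.25. Bhlhe40, a repressor of Il10, was 17.2-fold higher in P4, Maf 15.7-fold and Prdm1 (Blimp-1) 6.23-fold. The immediate early factors Fos, Jun and Junb differed by -0.01, -0.35 and -0.22, and Fosb by 0.68. Batf3 and Irf8, both also dendritic cell markers, were lower in P4 than in P3, by at least 49.2-fold and by 3.31-fold. In P4 against P1, 6 of 27 feedback inhibitors were higher and 0 lower, where 5.43% and 1.77% of all measured genes were. They were led by Spry2, a restrainer of receptor kinase signalling, at 31.1-fold and Rgs16, a brake on G protein signals, at 31.0-fold. In P4 against P3, 0 were higher and 0 lower (3.98% and 9.06% of genes). Over the 4 subsets 11 of 27 spanned at least 2-fold, against 18.3% of all genes.

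**Figure D5:**
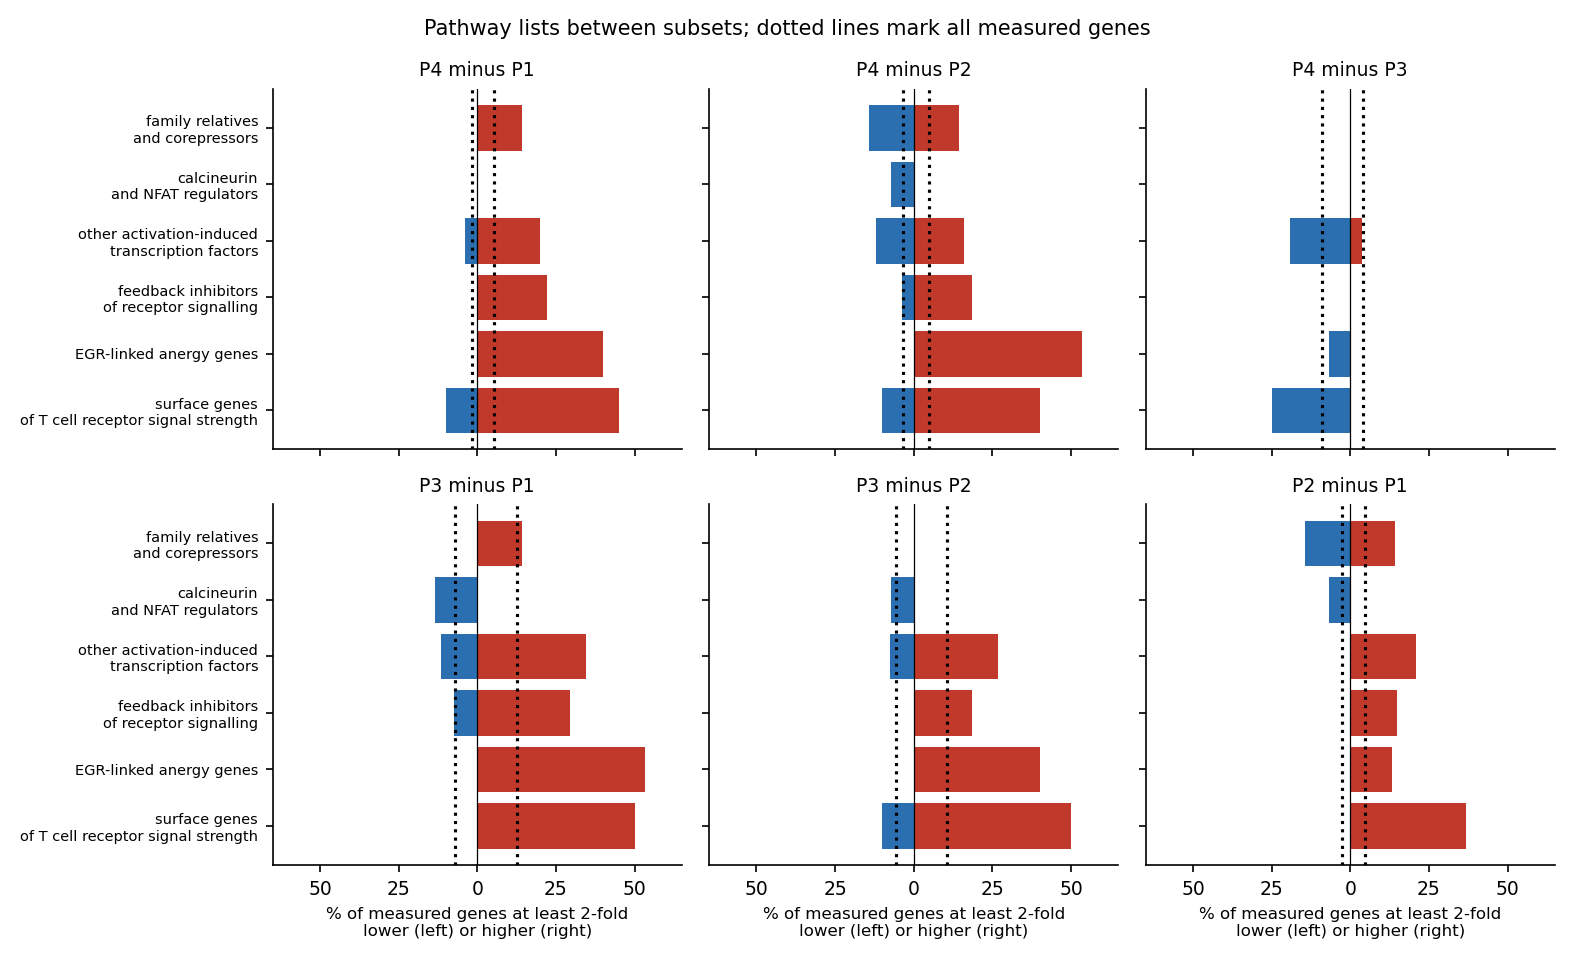
Share of the measured genes of 6 lists (rows) that were at least 2-fold lower (blue, left of 0) or higher (red, right of 0) in the first subset of each pair (panels); dotted lines mark the same shares over all measured genes. The EGR-linked anergy and surface lists reach furthest right in the pairs of P4 and P3 with P1 and P2, and the calcineurin and NFAT regulators show no red bar in any pair.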

How the data were processed

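Total RNA of the sorted subsets was labelled with Cy3 and hybridised to 4 arrays, 1 per subset, per the labels' protocols. The authors read spot intensity from the scans in Agilent Feature Extraction 11.0.1.1, per the submitters' processing notes. The deposited processed signal is background-subtracted, per the file headers, and not normalized between arrays. The authors' deposited table gives 26188 probes on a log2 scale, and each column has the median 8.85. It correlated with the log2 signal of its own array at 0.9995 or more, so its scale, centring and direction were settled from the values.

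The 59305 non-control spots of each array stand for 56605 probes. Between 122 and 152 outlier spots per array were dropped, 0 were saturated, repeated spots were averaged, and the 75th percentile over probes was subtracted on the log2 scale. Of these, 32994 probes were named through RefSeq, for 22909 genes. A gene took its probe with the highest mean, and was measured in a pair where either array had it well above background. The dimmer value, if not above background, was set to the lowest level that its array measured. Counts use a threshold of 2-fold, and counting was tested on simulated data.

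The members, the lists and the markers were chosen with earlier results of these data known. Named genes are the members, the family relatives and, per list and pair, up to 4 genes past 2-fold with the largest difference. Dgka, Cd5, Cd69, Fos, Jun, Junb, Fosb, Rcan1, Ndrg1 and Izumo1r were added after their values were seen. For each member that spanned 2-fold, 3 genes of like pattern were named. Motifs were searched in RefSeq windows of GRCm38.p6. Other settings changed the background correction (normexp in limma 3.58.1, offset 50), normalization, filter, probe rule, threshold and value table. Python 3.11.15, pandas 2.3.3 and R 4.3.3 were used. The number of arrays limits the precision.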

Additional observations from a re-analysis of the deposited data

Results flagged for a closer look

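For Tox, the difference between CD44high and CD44low cells pointed opposite ways in the CD62L classes, at 0.897 among CD62Llow cells (P3 minus P4) and -0.437 among CD62Lhigh cells (P2 minus P1). For Nr4a1 it did so with the signs turned, at -0.226 (P3 minus P4) and 0.283 (P2 minus P1). Both directions held under every setting tried, with Tox between 0.50 and 0.97 and between -0.44 and -0.41. Nr4a1 came as close to 0 as a P4 minus P3 difference of 0.11, within spot noise. Each value compares 1 array with 1 array, and the difference between the classes was not tested. P3 also held transcripts of antigen-presenting cells, whose part in these values was not tested.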

How the results depend on the processing

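No paired analysis was possible because each subset has 1 array. No difference of 2-fold or more changed sign under the settings run. At a 4-fold threshold in place of 2-fold, the members counted as higher were 0 in P4 against P1, 0 in P4 against P2, 0 in P4 against P3, 1 in P3 against P2 and 0 in P2 against P1, where fewer genes pass by construction. With the mean over a gene's probes, 1 member (Egr3) was lower in P3 than in P1, since that mean takes in the Egr3 probe that is above background on no array. The remaining member counts stayed within 1.5 times, including those with the second brightest probe, a setting chosen after seeing the data. That setting moved 17 of 53 member differences by more than spot noise and changed which members passed 2-fold. Nfatc1 then passed in P4 against P1 (1.26), P3 against P1 (1.59) and P3 against P2 (1.27). Nr4a2 no longer passed in P3 against P2 (0.88), so an unchanged count there hides an exchange of members. Nr4a3 in P4 against P1 lay between 0.09 and 0.86 over the settings. Smaller differences did change sign: Nr4a1 in P3 against P2 between -0.02 and 0.24, Egr3 in the same pair between -0.05 and 0.81, Nr4a3 in P3 against P1 between -0.29 and 0.21 and in P2 against P1 between -0.08 and 0.22, and Tox2 in all 5 pairs measured. Without filter and floor, Tox2 in P4 against P1 was 1.04, and the median of all genes moved by up to 0.26 on the log2 scale. Normexp lowered the genes counted as higher in P4 than in P1 to 400, against 715, and as lower to 69, against 233. List counts moved most for the family relatives, where Egr4 enters only through a bound, lost with normexp in P4, P3 and P2 against P1, and the 1 gene lower in P4 than in P2 (Nfatc2) became 0 with quantile normalization. Tox2 lies where spot noise is widest (0.72). Nr4a3, and Egr4 where it was well above background, lie between -3 and 0, where spot noise is 0.37. A sort, a mouse pool and an array cannot be told apart here.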
